A study of Saccharomyces cerevisiae with 262 samples.

Results

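The proteasome is the ATP-dependent protease that removes ubiquitin-tagged proteins, and the values described here are the transcripts of 32 of its subunits and of RPN4, the transcription factor that activates them, in a cross of budding yeast. The 33 genes were listed by symbol and sorted by place in the complex: 7 subunits of the alpha ring and 7 of the beta ring of the core particle, 10 of the base and 8 of the lid of the regulatory particle, and RPN4. Each of the 33 matched 1 probe, out of 5645 probes with 1 gene symbol. The rule for membership is the gene symbol alone, and the set was proposed with earlier results of these data known.

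Peptide bonds are cut inside the core particle, in a chamber formed by the beta rings and closed by the alpha rings. The base, a ring of ATPases with ubiquitin receptors, unfolds the substrate and opens the core, and the lid holds the enzyme that removes ubiquitin. Rpn4 binds upstream of most proteasome genes in yeast and is itself a substrate of the proteasome, so its protein is short-lived and the pair forms a feedback loop. Only transcripts were measured here.

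RNA was compared on 2-colour arrays between a haploid strain and a reference pool of RNA from the laboratory strain BY4716, and each strain sample was run on a dye-swapped pair of arrays. The groups were BY4716 itself (BY, isogenic to S288c, 6 pairs), the wild vineyard parent RM11-1a (RM, 12 pairs that carry 6 replicate numbers) and 113 haploid offspring of their cross, the segregants (1 pair each). The labels used here give no treatment, growth condition or time. All groups share the reference pool, so BY was compared with RNA of its own strain. Each value is the mean log2 ratio of a strain to the reference over the 2 arrays of a pair, with its direction set by strain markers. Such ratios do not rank transcripts of different genes by abundance.

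An array gave values for 3597 to 6581 of 7085 probes. The direction of the ratios rests on strain markers, 6 of which could be tested and were lower in RM: LEU2 stood at -5.93 and URA3 at -4.87 in RM, and the alpha-cell receptor gene STE3 at -5.80. The BY replicates were of 2 kinds in growth-related transcripts. A mean was taken over those of 12 stress genes that had a value. It was 0.36 and 0.32 in BY replicates 1 and 2, -0.54 to -0.38 in replicates 3 to 6 and 0.097 to 0.78 in RM. The genes behind it differ: GRE1 (2.03 in RM) had no BY value and CTT1 (2.72 in RM) had 2. The BY and RM stress means are therefore not like for like. They also pool genes of opposite direction. Of 8 tested, 3 were higher in RM and 4 lower, beside 34.8% and 21.2% of all probes. HSP12 differed by 2.17 and HSP26 by -2.57. The mean of the measured ribosome biogenesis genes was -0.36 and -0.32 in BY replicates 1 and 2 and 0.13 to 0.24 in BY replicates 3 to 6. The mean of the subunits overlapped between them, with 0.015 and 0.060 in BY replicates 1 and 2 and 0.030 to 0.089 in the other BY replicates. In 7 segregants the median over the probes of a chromosome stood high, and they are described with the segregants. Calls of the members between the parents that were lost without BY replicates 1 and 2 are given. Differences are with all replicates unless stated otherwise. Some results on segregants are also given without the 7.

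Between the parents, the core particle had the largest median difference of core, base and lid, 0.27. In it 8 of 11 tested subunits were called higher in RM and none lower, against 34.8% and 21.2% of all probes. With all 3 groups in 1 fit, 4 of the 11 were called higher. The shares above are from the fit of the parents alone, and that of all probes in the fit of 3 groups is not given here. The mean of the core subunits lay between -0.022 and 0.080 in the BY replicates and between 0.19 and 0.25 in the RM replicates, and the ranges did not overlap. The mean of the base subunits was 0.034 to 0.099 in BY and 0.14 to 0.18 in RM. The mean of the lid subunits was 0.012 to 0.091 in BY and 0.052 to 0.12 in RM, and these ranges overlapped. RPN4 differed more than all but 1 of the subunits tested.

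The RPN4 ratio was 0.013, 0.047, 0.072, 0.19, 0.040 and 0.15 in BY replicates 1 to 6. It was 0.58, 0.50, 0.49, 0.57, 0.47 and 0.50 in RM replicates 1 to 6. Every RM replicate lay above every BY replicate. The difference of 0.43 ± 0.039 (SE, 6 replicates each), a 1.35-fold higher level in RM, passed limma's test at an adjusted p of 6.43e-07 (Benjamini-Hochberg over 2639 probes). When the segregants were added to the fit and shared its spread, the same difference had a limma adjusted p of 0.0704. The arrays came from whole cultures, in which less RNA per cell and fewer cells with the transcript cannot be told apart.

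**Figure D1:**
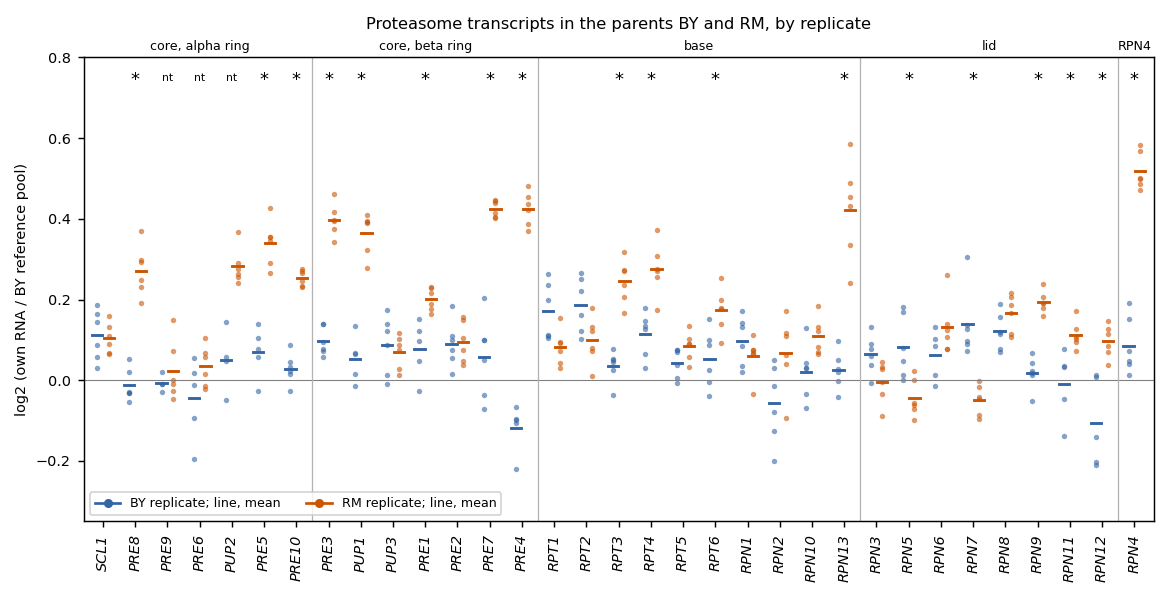
Each point is the log2 ratio of own RNA over the BY reference pool in 1 replicate of BY (blue) or RM (orange), short lines are group means, and genes are grouped by place in the complex. Stars mark genes that passed the limma test between the parents and nt marks genes not tested. RPN4 and 8 of 11 tested core subunits are higher in RM, and RPN5 and RPN7 of the lid are lower.

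A gene was tested if each parent lacked no more than 1 replicate and 80% or more of the segregants were measured, and 30 of the 33 genes met this. With RPN4 counted, 16 of 30 were higher in RM, against 34.8% of all 2639 probes tested. In the other direction 2 of 30 passed, against 21.2% of all probes, and 12 did not pass. The median difference over the 29 tested subunits was 0.12, beside 0.031 over all probes.

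The split between higher and lower moved with the scaling. It was 14 to 5 when each array was centred on its median, with RPT1, RPT2 and RPN3 added to the lower genes, and 12 to 6 after quantile normalization, which also added RPN1. With BY replicates 1 and 2 left out it was 16 to 4. In these 3 settings the median difference over the tested subunits was 0.093, 0.046 and 0.097. Over all probes the median moved as well, from 0.031 as fitted to 0.0042, 0.0028 and 0.0064. As fitted, the subunit median was 0.12, so with quantile normalization it moved further than that of all probes. The shares of all probes called in these settings are not given here. In the core no gene was called lower in RM under any of these settings, and 7 or 8 were called higher.

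In the alpha ring 3 of 4 tested subunits rose, beside 34.8% of all probes, and none fell, with a median difference of 0.25. The ratio of PRE10 in BY replicates 1 to 6 was -0.028, 0.044, 0.023, 0.015, 0.033 and 0.087. In RM it was 0.27, 0.23, 0.28, 0.23, 0.27 and 0.25, above all BY values. The difference was 0.22 ± 0.029 (SE, limma adjusted p = 1.86e-05).

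PRE8, another alpha subunit, gave -0.031, 0.053, -0.028, -0.055, -0.032 and 0.021 in BY replicates 1 to 6. In RM it gave 0.19, 0.23, 0.30, 0.25, 0.37 and 0.29, and the groups did not overlap. The difference was 0.28 ± 0.036 (SE, limma adjusted p = 1.88e-05). PRE5 rose by 0.27, and SCL1 did not pass, at 0.11 in BY and 0.10 in RM.

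The other alpha subunits did not meet the filter. PRE9, the one alpha subunit that yeast can live without, had a value in 42 of 113 segregants, and PRE6 in 87. PUP2 lacked 2 of 6 BY replicates, and its 4 BY values, -0.050 to 0.14, all lay below its 6 RM values, 0.24 to 0.37.

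In the beta ring 5 of 7 subunits rose, beside 34.8% of all probes, with a median difference of 0.30. PRE4, a beta subunit without a catalytic site of its own, differed most among the subunits tested. Its ratio was -0.11, -0.098, -0.22, -0.066 and -0.096 in BY replicates 1, 3, 4, 5 and 6, and BY replicate 2 had no value. In RM replicates 1 to 6 it was 0.44, 0.42, 0.39, 0.37, 0.45 and 0.48. The groups were far apart, and the difference of 0.54 ± 0.038 (SE), or 1.46-fold, had a limma adjusted p of 1.18e-07.

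PRE3, PUP1 and PRE2 encode the subunits that hold the catalytic sites. PRE3 was measured at 0.072, 0.14, 0.077, 0.095, 0.058 and 0.14 in BY replicates 1 to 6 and at 0.46, 0.40, 0.38, 0.34, 0.42 and 0.39 in RM. All RM values lay above all BY values, with a difference of 0.30 ± 0.031 (SE, limma adjusted p = 2.37e-06). PUP1 rose by 0.31 ± 0.039 (SE), while PRE2 did not pass, at 0.090 ± 0.057 in BY and 0.095 ± 0.051 in RM (SD, 6 replicates each). PRE7 rose by 0.37 and PRE1 by 0.12. PRE7 stood at -0.071 and -0.036 in BY replicates 1 and 2 and at 0.049 to 0.20 in BY replicates 3 to 6. The call of PRE1 was lost with Cy3 arrays alone (limma adjusted p = 0.116) and with quantile normalization, where its difference was 0.035. PUP3 did not pass, at 0.088 in BY and 0.070 in RM.

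In the base 4 of 10 subunits rose, near the 34.8% of all probes, and the median difference was 0.10. None fell as fitted, but RPT1 and RPT2 were called lower with median-centred arrays, without BY replicate 1 and without BY replicates 1 and 2, and RPT1, RPT2 and RPN1 with quantile normalization. RPT1 alone was called lower without BY replicate 2, BY replicate 5 or RM replicate 1 and with all RM pairs as replicates, and RPT2 alone with Cy3 arrays. RPN13, a ubiquitin receptor, was measured at -0.042, 0.029, -0.00080, 0.020, 0.051 and 0.097 in BY replicates 1 to 6. In RM it was 0.24, 0.33, 0.43, 0.45, 0.59 and 0.49. The groups did not overlap, although the RM values spread more (SD 0.12) than those of any other tested member in either parent. The difference was 0.40 ± 0.053 (SE, limma adjusted p = 2.70e-05).

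The 6 RPT genes encode the ATPase ring, and 3 of them rose, beside 34.8% of all probes. RPT3 was measured at -0.037, 0.078, 0.046, 0.049, 0.026 and 0.053 in BY replicates 1 to 6 and at 0.32, 0.27, 0.24, 0.17, 0.21 and 0.27 in RM. The groups did not overlap, and the difference was 0.21 ± 0.034 (SE, limma adjusted p = 1.56e-04). RPT4 rose by 0.16 and RPT6 by 0.12. The call of RPT4 was lost with Cy3 arrays alone (limma adjusted p = 0.0719) and with quantile normalization, where its difference was 0.033. The call of RPT6 ended without BY replicate 5 and without BY replicates 1 and 2 together. It was also lost with either dye alone, median-centred arrays, quantile normalization and all 3 groups in 1 fit. The limma adjusted p of RPT6 ranged from 0.00784 to 0.561 over all settings tried.

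RPT1 and RPT2 pointed the other way without passing, with differences of -0.090 ± 0.039 and -0.088 ± 0.040 (SE). RPT5 stood at 0.043 in BY and 0.084 in RM. Among the larger base subunits, the scaffold RPN2 differed by 0.12 ± 0.054 and RPN1 by -0.038 ± 0.037, and the ubiquitin receptor RPN10 by 0.088 ± 0.038 (SE), and none of these passed.

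In the lid 3 of 8 subunits were higher and 2 lower in RM, near the 34.8% and 21.2% of all probes, with a median difference of 0.056 that became -0.043 after quantile normalization. RPN9 was measured at -0.051, 0.014, 0.042, 0.067, 0.023 and 0.019 in BY replicates 1 to 6. In RM it was 0.24, 0.19, 0.18, 0.19, 0.21 and 0.16, above all BY values. The difference was 0.18 ± 0.030 (SE, limma adjusted p = 2.20e-04).

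RPN7 was the member that fell most in RM. Its ratio was 0.091, 0.073, 0.31, 0.13, 0.098 and 0.14 in BY replicates 1 to 6 and -0.017, -0.096, -0.041, -0.047, -0.0020 and -0.087 in RM. Every RM value lay below every BY value, with a difference of -0.19 ± 0.041 (SE, limma adjusted p = 1.77e-03). RPN5 also fell, by 0.13. Neither fall passed when only the arrays with the strain in Cy5 were used, where the differences were -0.090 for RPN5 and -0.094 for RPN7.

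RPN12 rose by 0.20. Its BY values were 0.0080 and 0.013 in replicates 1 and 2 and -0.21 to -0.14 in replicates 3 to 5. RPN11, the deubiquitinating subunit, rose by 0.12, and this was the least stable call: its limma adjusted p was 0.0288 as fitted and 0.053 when the replicate number was added as a block, and it was also lost without BY replicate 5, BY replicate 6, RM replicate 5 or RM replicate 6. RPN3, RPN6 and RPN8 did not pass, with differences of -0.069, 0.068 and 0.045.

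The other genes of the pathway were taken from lists by role. Of 15 assembly and associated factors 10 could be tested, and 2 rose and 2 fell, no larger shares than the 34.8% and 21.2% of all probes. UMP1, the maturation factor of the core, rose by 0.47 ± 0.040, from 0.0099 in BY to 0.48 in RM. UBP6, a deubiquitinase that docks on the base, rose by 0.42 ± 0.058. The alternative core cap BLM10 fell by 0.18 and ECM29, which tethers core and regulatory particle, by 0.26 (limma adjusted p from 3.62e-07 to 3.89e-03 over these 4). The call of BLM10 was lost with Cy5 arrays alone.

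Of 21 genes of the ubiquitin system 13 could be tested, and 5 rose and 2 fell, again near the shares of all probes. UFD1, a cofactor of the Cdc48 segregase, rose by 0.29, the ubiquitin-conjugating enzyme UBC4 by 0.24, the shuttle factor RAD23 and the ligase RSP5 by 0.18 each, and the polyubiquitin gene UBI4 by 0.18. The ligase TOM1 fell by 0.31 and MUB1, a partner of the ligase that acts on Rpn4, by 0.15. The call of UBI4 was lost without BY replicate 5 or RM replicate 1, 3 or 4, and that of MUB1 without BY replicate 4 or RM replicate 6. In the Cy5 arrays alone the MUB1 difference was -0.00020, and TOM1 and RAD23 did not pass. Quantile normalization ended the calls of UBI4, RAD23, MUB1 and RSP5, and the lowest RAD23 difference in any setting was 0.064.

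Among 4 regulators of RPN4 transcription only YAP1 could be tested, and it rose by 0.17 ± 0.039 (SE, limma adjusted p = 2.82e-03), a call lost with Cy3 arrays alone and with quantile normalization. The 3 that could not be tested were lower in RM than in the few BY values: PDR3 averaged -1.02 over 6 RM replicates with 1 BY value of -0.026, PDR1 -0.030 with 4 BY values averaging 0.21, and HSF1 -0.093 with 4 BY values averaging 0.031. Of 7 other transcripts linked to Rpn4, 4 could be tested and 3 rose, beside 34.8% of all probes. TMA17, an assembly chaperone of the base, rose by 0.88 ± 0.12 (SE), from -0.036 ± 0.31 in BY to 0.84 ± 0.14 in RM (SD, 6 replicates each). The others were RAD23 and UFD1, which also stand among the ubiquitin genes. The other 3 could not be tested. The 4 BY values of DDI1 averaged 0.084 and its 6 RM values 0.51. The 2 BY values of PNG1 averaged 0.17 and its 6 RM values -0.25, and for MAG1 these were 0.19 and -0.079.

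The segregant mean of RPN4 was 0.32 and lay 0.014 above the parental midpoint. The segregant mean minus the midpoint was below 0 in 27 of 29 tested subunits, with PRE8 and PRE4 as the exceptions, and had a median of -0.076, beside -0.0042 over all probes. These estimates share the same 12 parental replicates.

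One subunit passed: RPT1, at 0.16 below the midpoint (limma adjusted p = 0.0467), against 0.644% of all probes called in that direction. Its mean was -0.030 in segregants, 0.17 in BY and 0.081 in RM, and 73 of 112 segregants lay below all 12 parental replicates. The call was lost when any 1 of the 12 parental replicates was left out, with adjusted p from 0.0593 to 0.113, and also with median-centred arrays. RPN8 did not pass: 82 of 113 segregants lay below every parental replicate, and its mean was -0.0065 beside 0.12 in BY and 0.17 in RM.

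**Figure D2:**
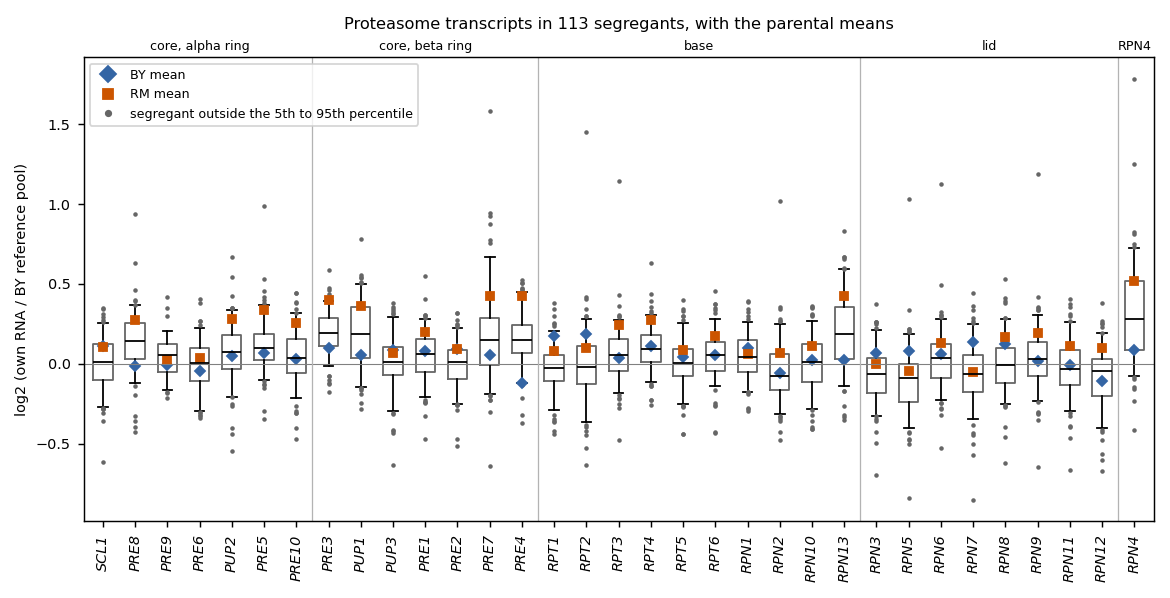
Boxes show the middle of the segregants' log2 ratios (own RNA over the BY reference pool) for each gene, with the median as a line, whiskers from the 5th to the 95th percentile and points beyond them, and BY and RM means as a diamond and a square. RPN4 has the widest box, and single high points stand above RPT2, RPT3, RPN2, RPN5, RPN6 and RPN9.

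The genes differed in where the segregants fell between the parents. For PRE4, 93 of 110 segregants lay in the gap between the highest BY and the lowest RM replicate, 5 within the BY range and 7 within the RM range. For PRE3 it was 65 of 113 in the gap. Such counts depend on the width of the gap, which ran from -0.066 to 0.37 for PRE4. For PRE1 it ran from 0.15 to 0.16 and held 3 of 109 segregants. RPN4 was spread more evenly, with 23 of 111 below the BY range, 22 within it, 33 in the gap, 10 within the RM range and 23 above it. PRE10 leaned to BY, with 35 of 113 below the BY range, 36 within it, 29 in the gap, 2 within the RM range and 11 above it.

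No member met the criterion for separate groups of segregants. A mixture of 2 Gaussians was called where its BIC exceeded that of 1 Gaussian by more than 10 and neither component held under 20% of the strains. This held for 0 of 31 members with enough values, against 2.75% of all probes. RPN2 and PRE7 had BIC differences of 14.5 and 13.3, with 0.9% and 5.3% of segregants in the smaller component. For RPN4 the BIC difference was 5.40 and became -0.74 without the 2 segregants farthest from its median.

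The subunits varied little among segregants, and RPN4 varied much more. The SD over segregants had a median of 0.18 over the 32 subunits, and ran from 0.13 in PRE3 to 0.29 in PRE7. It was below the median of all probes (0.25) in 31 of 32. That of RPN4 was 0.32, larger than in 71.3% of all probes. Its lowest, median and highest values were -0.41, 0.28 and 1.79.

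Against the spread of parental replicates, 17 of 30 members varied more among segregants by limma on absolute deviations, against 42.3% of all probes. By the F ratio of variances it was 30 of 30, beside 65.5% of all probes. RPN4 had the largest excess among the members, with an absolute deviation 0.20 above the parental one (limma adjusted p = 7.01e-03) and a variance 28.1 times that of parental replicates. Broad-sense heritability, 1 minus the parental over the segregant variance, was estimated at 0.96 for RPN4 and at 0.74 (RPN2) to 0.96 (RPN9) for subunits. These estimates include whatever varied between cultures of different strains, and any array noise beyond that of the parental replicates. Across segregants the arrays of a pair correlated at r = 0.64 for RPN4 and at -0.11 (PRE9) to 0.83 (RPT2) for subunits. For RPT5, with a heritability estimate of 0.96, this r was 0.37. The part of array noise in the estimates was not tested, so they cannot be read as a genetic share.

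Some of the highest values came from segregants in which a whole chromosome stood high. The median of all probes on a chromosome exceeded 0.4 in 8 of 1808 combinations of segregant and chromosome, in 7 segregants, at 0.45 to 0.82. The other medians lay between -0.15 and 0.31, with an SD of 0.038. Copy number was not measured.

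PRE7 is the 1 member on chromosome II, which was shifted in 5 segregants. It was measured there at 0.93 in segregant 8-1-a, 0.88 in 10-1-c, 1.58 in 13-2-c, 0.95 in 15-5-b and 0.78 in 22-2-d. These were its 5 highest values. The subunits on other chromosomes had medians of -0.027, 0.045, 0.28, 0.21 and -0.16 in the same strains.

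In segregant 14-6-d chromosome IV stood at 0.72 and chromosome IX at 0.64. Its values for the 6 members on chromosome IV were 1.45 for RPT2, 1.15 for RPT3, 1.03 for RPN5, 1.13 for RPN6, 1.19 for RPN9 and 1.25 for RPN4. RPN2, on chromosome IX, was at 1.02. All 6 of these subunits had their highest value in that strain, while its subunits elsewhere had a median of 0.20. In segregant 9-4-d, with chromosome XIII at 0.77, PRE8 was at 0.94 and PRE5 at 0.99, and subunits elsewhere had a median of -0.13. Without the 7 segregants the SD of PRE7 went from 0.29 to 0.22 and that of RPT2 from 0.24 to 0.19, and 22 of 30 members varied more than in parental replicates, against 42.3% of the 2613 probes tested in that fit.

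**Figure D3:**
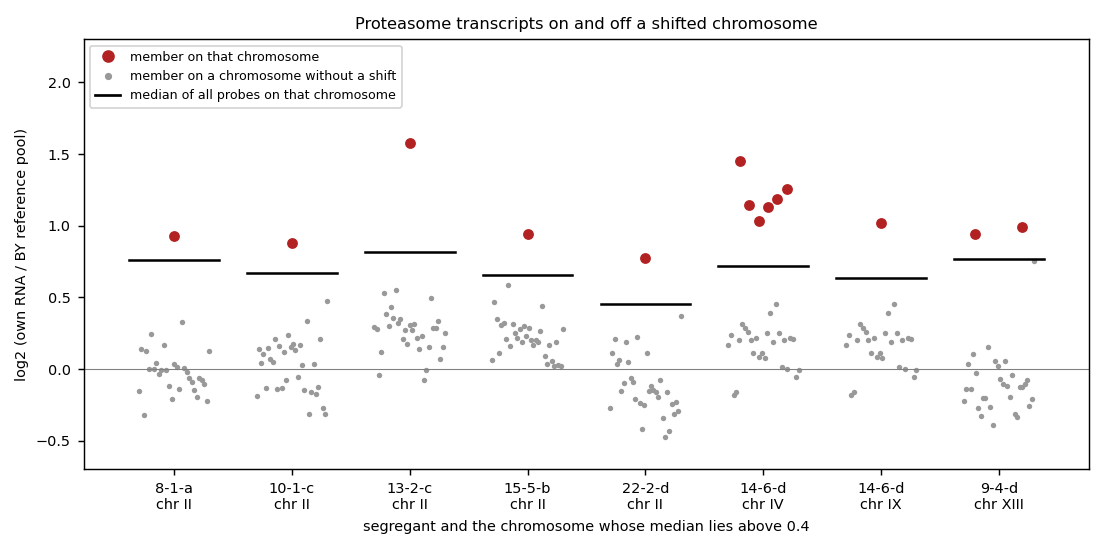
For each of the 8 combinations of segregant and chromosome with a median above 0.4 (black line, all probes on the chromosome), red points are the log2 ratios of proteasome genes on that chromosome and grey points those of the genes on unshifted chromosomes. Genes on the shifted chromosome lie at 0.78 to 1.58, above the chromosome's own median.

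Across segregants the subunits rose and fell together. The median Pearson r over the 496 pairs of subunits was 0.42 and 492 pairs were positive, beside a median of 0.0004 over all pairs of probes. Each point is 1 pair of arrays, and the 2 genes of a pair share arrays, culture and reference, so one gene was also read from the Cy5 array and the other from the Cy3 array: the median was then 0.28 and 487 pairs were positive. From the means of both arrays, the median was 0.44 without the 7 segregants with a shifted chromosome. Without the 2 segregants whose subunit mean lay farthest from its median it was 0.35, and 485 pairs were positive.

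Within classes, the median r was highest in the lid (0.58), followed by the base (0.50), the beta ring (0.44) and the alpha ring (0.40). Between classes the medians were 0.46 for base with lid, 0.41 for beta ring with lid and 0.34 for alpha ring with base. The highest values were those of RPN5 with RPN9 (0.82), RPN6 with RPN9 (0.82) and RPN5 with RPN6 (0.81), lid genes that all lie on chromosome IV. Without the segregants with a shifted chromosome these pairs had r of 0.75, 0.72 and 0.72 and ranked 4, 9 and 8 of 496. The highest was then SCL1 of the alpha ring with RPN12 of the lid (0.78), and the lid median was 0.62.

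Single genes followed the others to different degrees. PRE2 had the highest correlation with the mean of the other subunits (r = 0.84, rho = 0.79), then RPN7 (0.82) and PRE10 (0.80). RPN13 was low, at 0.29, and so was PRE9, at 0.26 over 42 segregants, whose 2 arrays correlated at -0.11. The class means followed each other more closely, with r of 0.77 for core with base, 0.79 for core with lid and 0.83 for base with lid (113 segregants). Without the 2 segregants farthest from the median on the first of each pair these were 0.75, 0.75 and 0.78.

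**Figure D4:**
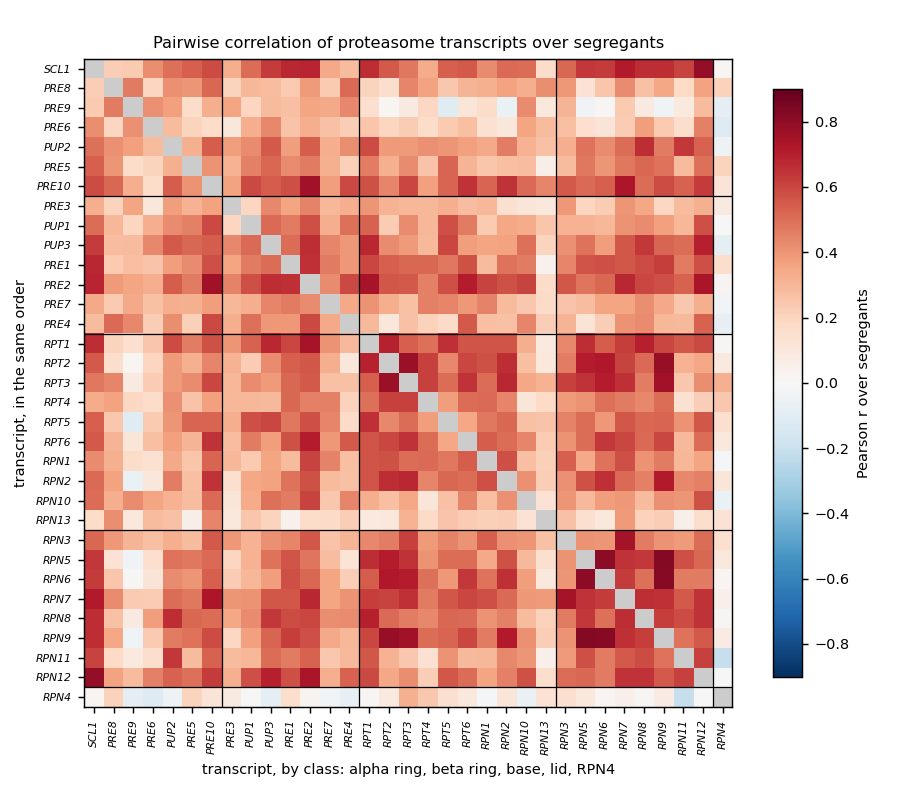
Colours give the Pearson r over segregants between each pair of genes, ordered by alpha ring, beta ring, base, lid and RPN4, with grey on the diagonal. Nearly all subunit pairs are positive and the darkest block is RPN5, RPN6 and RPN9 of the lid, while the RPN4 row stays between -0.21 and 0.32.

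A few segregants stood at the ends for the whole complex. Segregant 21-2-d had the lowest subunit mean, -0.45, with -0.39 in the core, -0.35 in the base and -0.69 in the lid, while its RPN4 was at 0.13. Its lid values ran from -0.85 in RPN7 to -0.53 in RPN6. Segregant 7-8-d had the highest subunit mean, 0.36, with 0.39 in the core, 0.33 in the base and 0.35 in the lid, and RPN4 at 0.42. The stress mean was 0.59 in 21-2-d and -0.67 in 7-8-d, beside a median of 0.011.

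Over all 113 segregants the subunit mean correlated with the stress mean at r = -0.29 and with the mean of 12 ribosome biogenesis genes at r = 0.24. RPN4 had r = 0.27 and r = -0.14 with them. The part of these states in the results was not tested.

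RPN4 showed little correlation with the subunits among segregants. The r between RPN4 and a subunit had a median of 0.036 over 32 subunits and ran from -0.21 in RPN11 to 0.32 in RPT3. With the mean of all subunits RPN4 had r = 0.081 and rho = 0.0062 over 111 segregants, and r = 0.010 without the 2 segregants farthest from the RPN4 median. With the core mean r was 0.052, with the base mean 0.15 and with the lid mean 0.035, and without the same 2 segregants these were 0.017, 0.051 and -0.043.

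In the fit across all probes with RPN4 as covariate, 1 of 30 subunits rose with it, against 2.59% of 5522 probes, and none of 30 fell, against 3.3%. The 1 was RPT3, with a slope of 0.18 ± 0.051 (SE) per log2 unit of RPN4 (limma adjusted p = 0.0239). RPT3 and RPN4 both lie on chromosome IV, and the slope was 0.094 (adjusted p = 0.178) without the segregants with a shifted chromosome and 0.11 (adjusted p = 0.168) without 11-2-d and 14-6-d, the 2 farthest from the RPN4 median. In 11-2-d, where RPN4 was highest at 1.79, the 2 arrays read 0.65 and 2.92.

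A few other listed genes rose with RPN4, as did 2.59% of all 5522 probes. Of 21 ubiquitin genes 2 did, DDI1 (r = 0.38, limma adjusted p = 8.11e-03) and UBC5 (r = 0.32, limma adjusted p = 0.0236). Of 4 regulators YAP1 did (r = 0.37, limma adjusted p = 8.18e-03). None of the 15 assembly factors passed, and UMP1, which was higher in RM as RPN4 was, had r = 0.085. Of the 12 stress genes 11 could be tested and 1, HSP78, passed. None of DDI1, UBC5 and YAP1 passed with RPN4 read from the Cy3 array and the other gene from the Cy5 array. There YAP1 had a limma adjusted p of 0.39. DDI1 was also lost with Cy5 arrays alone, and UBC5 with either dye alone and with the stress and ribosome biogenesis means as further covariates.

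**Figure D5:**
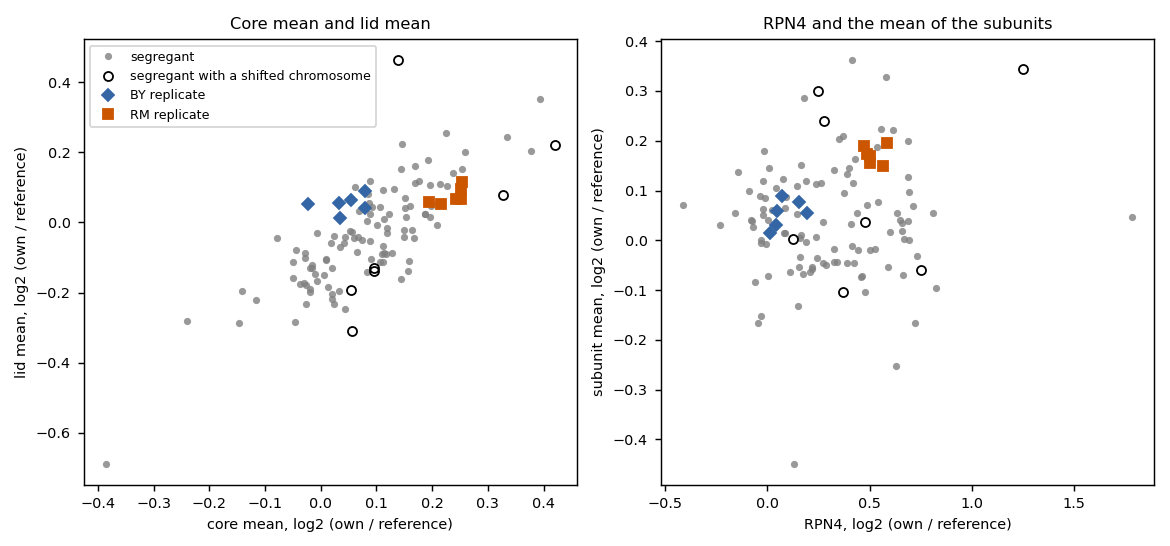
Left, the mean of the lid subunits against the mean of the core subunits, and right, the mean of all subunits against RPN4, all as log2 ratios of own RNA over the BY reference pool, with 1 point per segregant (open circles for the 7 with a shifted chromosome) and per parental replicate (blue diamonds BY, orange squares RM). Core and lid rise together (r = 0.79), while subunit mean and RPN4 have r = 0.081 over segregants.

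The transcripts outside the complex that followed the mean of the subunits most closely, of 5066 ranked by Pearson r over segregants, were GET3 (r = 0.72), an ATPase that delivers tail-anchored membrane proteins, and the SNARE gene YKT6 (0.71). The next were the chaperonin gene CCT4 (0.67), the GTPase gene ARF1 (0.67), the ubiquitin-conjugating enzyme RAD6 (0.65), the Hsp90 gene HSC82 (0.65), SLY1 (0.65), SEC28 (0.63), CCT2 (0.63) and ARF2 (0.63). The order depended on the segregants with a shifted chromosome: without them YKT6 ranked 2 and GET3 3, CCT4 fell to rank 12, SLY1 to 13, SEC28 to 18 and CCT2 to 38, ARF2 stood at 11, and CSE1 and VPS1 rose to 4 and 5.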

How the data were processed

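The authors deposited log2 ratios of 262 2-colour arrays, with the mean of every array at 0 (largest absolute mean 1.16e-08). The sources used here do not give the scanner, background step or spot filter. Base 2 was inferred from the range of values. The deposited ratio is likely reference over own RNA, from LEU2, URA3, LYS2, HO and mating-type genes, and its sign was turned. Among arrays of 1 dye orientation r was as low as -0.419 (Cy5) and -0.366 (Cy3), and the 17 and 12 array pairs below -0.3 were all of a BY with a segregant array; the labels state the dyes, so the direction was kept. The labels' description calls every sample a segregant, and groups come from source names and titles. They name no batch, and do not say whether replicates are separate cultures, so the p-values speak of the spread among these samples, which may be technical.

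The value of a pair was the mean of its 2 arrays, missing if either was. RM pairs that share a number were averaged first. Tests used limma 3.58.1 in R 4.3.3 (lmFit, eBayes, two-sided, Benjamini-Hochberg over all probes, threshold 0.05) and mclust 6.1.1. A limma fit names its adjusted p wherever one is printed. The parental fit held BY and RM, the midpoint fit all 3 groups, the variability fit absolute deviations with the first RM repeat, and the RPN4 fit segregants with a value. Correlations are descriptions. Chromosomes come from systematic gene names. Steps were tested on simulated data. Number of arrays and spread between replicates limit the precision.

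BY and RM replicates of the same number deviated together (r of 0.511, 0.129, 0.343, 0.150, 0.305 and 0.174 over 2639 probes for numbers 1 to 6). The r between different numbers is not given. The parental fit reported above left the pairing out, and a fit with the number as a block is given where it changed a call. With the block PRE4 had a limma adjusted p of 1.06e-05. Genes and lists were chosen with earlier results of these data known. Named with values by replicate are RPN4 and the 2 called members with the lowest adjusted p in each class; the other members are described by class, and outside genes come from the lists or are the 10 with the highest r with the subunit mean. Alternatives were median centring, quantile normalization, each dye alone, other filters, other replicate sets, the block, and segregants left out, the latter chosen after seeing the data for segregants with a shifted chromosome (median of all its probes over 0.4) and for leaving out the 2 farthest in the correlations among subunits and in the mixture.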

Additional observations from a re-analysis of the deposited data

Results flagged for a closer look

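Of 66 groups of parental replicates over the 33 genes, 4 held a replicate whose gap to the nearest other replicate was large for the group's range by Dixon's rule, and chance gives about 1 in 20. In BY, PRE4 was at -0.22 in replicate 4 against -0.11 to -0.066 in the other 4 measured. RPN7 was at 0.31 in BY replicate 3 against 0.073 to 0.14 in the others. In RM, RPN1 was at -0.033 in replicate 6 against 0.065 to 0.11, and RPN6 was at 0.26 in replicate 1 against 0.077 to 0.14. PRE4 and RPN7 were called between the parents, and without these replicates they kept their call and direction.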

How the results depend on the processing

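Between the parents the 16 genes higher and 2 lower in RM became 14 and 5 with arrays centred on their median, 14 and 0 with Cy5 arrays alone, 12 and 6 with quantile normalization, 16 and 4 without BY replicates 1 and 2 and 5 and 0 with all 3 groups in 1 fit, where the spread includes that of segregants and RPN4 (0.43) had an adjusted p of 0.0704 and 13 of the 18 calls were lost. Leaving out single replicates gave 15 to 18 higher and 2 to 4 lower, and RPN4 differences of 0.42 to 0.45. With the replicate block 15 were higher and 2 lower, RPN11 lost its call, no other call of the 30 members changed, and RPN4 stayed at 0.43 (limma adjusted p = 2.15e-05). No called gene turned its sign under the 22 settings tried. The median difference over all probes was 0.031 as fitted, 0.0042 with centred arrays and 0.0028 with quantile normalization. With Cy5 arrays alone it was 0.025, and with all 3 groups in 1 fit it stayed at 0.031. The share of all probes called in each setting is not given here. The count below the midpoint (1) was 0 with centred arrays, either dye alone, at least 3 values per group, without BY replicates 1 and 2 and without any single replicate, and 3 with quantile normalization. The variability count (17) was 30 by the F ratio. The count rising with RPN4 (1) was 2 with centred arrays or with the stress and ribosome biogenesis covariates (RPT3 and RPT4), 3 with Cy3 arrays (RPT3, RPT4 and PRE8), and 0 with RPN4 and the subunits read from opposite arrays in either order, without the 2 farthest segregants and without those with a shifted chromosome. The causes were not tested. Only ratios were used, so how far each signal stood above background is unknown and limits what can be said of dim probes.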
